A study of Mus musculus with 6 samples.

Results

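The blood-brain barrier and pericyte genes are 10 genes of the vessel wall, chosen by name from what is known of the neurovascular unit: Cldn5, Cdh5, Pecam1, Slc2a1, Abcb1a, Slco1a4, Mfsd2a and Flt1 for the endothelium, and Pdgfrb and Vtn for the pericytes that wrap it. They are 10 of the 55471 genes in the deposited count table, all 10 were found by identifier, and all 10 passed the filter on low counts. Whole hippocampus was sequenced from 3 p300-ifKO mice and 3 control littermates, C57BL/6 males (C57BL/6J in the methods) of 3 to 6 months, with 1 library for each mouse. All 6 mice had been given tamoxifen 5 times (20 mg/mL, in corn oil). The p300-ifKO mice carried floxed Ep300, the gene for the lysine acetyltransferase p300, together with the Camk2a-creERT2 transgene. The treatment protocol and the methods call controls creERT2-negative, whereas the controls' own library descriptions list the driver.

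Camk2a drives creERT2 in excitatory forebrain neurons, so the vessel cells that use these 10 genes are not the cells in which the driver acts. The comparison therefore asks whether RNA of the vessel wall differed around neurons in which p300 had been targeted. Since RNA came from whole tissue, fewer cells of a type and less RNA per cell cannot be told apart.

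The blood-brain barrier is formed by endothelial cells that are sealed by tight junctions, take up little fluid by vesicles and carry nutrients and drugs across their membranes with dedicated transporters. Pericytes lie in the basement membrane of the capillary, depend on PDGF signals from the endothelium and help to keep the barrier closed. Wnt signals from glia and neurons support barrier genes in the endothelium, and astrocyte endfeet cover the outer wall. Hippocampal neurons depend on this wall for glucose and for protection from substances in blood.

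The libraries held between 23151568 and 28433823 counts. Ep300 had 1545, 1474 and 2334 normalized counts (counts divided by the size factor of the library) in control mice 1, 2 and 3, and 478, 1350 and 912 in p300-ifKO mice 1, 2 and 3, which gave a log2 fold change of −0.97 (SE 0.33) and a DESeq2 adjusted p of 0.991. It passed the threshold with 1 surrogate variable, an unlabelled factor estimated from all genes, in the fit (−0.48, adjusted p 0.00127) and without p300-ifKO replicate 2 (−1.36, adjusted p 0.000375). Esr1, whose sequence is part of creERT2, had between 87.2 and 109 normalized counts in control and between 2416 and 4217 in p300-ifKO mice. The low control counts go with creERT2-negative controls. The p300-ifKO replicate 1 library stood apart: among 15450 genes with a mean of at least 20 normalized counts, it was the highest or the lowest of the 6 libraries in 77.3%.

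Endothelium and pericytes were clearly represented in this tissue. Defining markers outside the 10 genes had counts in each of the 6 libraries. For the endothelium, the angiopoietin receptor gene Tek had between 220 and 369 normalized counts, and the related receptor gene Tie1 between 306 and 331. For pericytes, the G-protein regulator gene Rgs5 had between 2563 and 3173, and the potassium channel gene Kcnj8 between 83.1 and 117.

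Sequence just before the start of the gene is shown for 3 of the 10 genes, chosen after their values were seen. Their expression varied in opposite directions over the 6 libraries: Cldn5 and Mfsd2a on one side and Flt1 on the other. That division also followed exonic length (below), and no link between these sequences and expression was tested. They are also the 3 for which RefSeq and the annotation used here place the start at the same base. Each run is the 250 bases before the start on GRCm38.p6 (from RefSeq), read 5′ to 3′ on the strand of the gene, from chr16:18776597-18776846 (+ strand) for Cldn5, chr4:122961189-122961438 (− strand) for Mfsd2a and chr5:147726012-147726261 (− strand) for Flt1. Capitals mark letters of any of 6 short motifs searched on both strands.
Cldn5: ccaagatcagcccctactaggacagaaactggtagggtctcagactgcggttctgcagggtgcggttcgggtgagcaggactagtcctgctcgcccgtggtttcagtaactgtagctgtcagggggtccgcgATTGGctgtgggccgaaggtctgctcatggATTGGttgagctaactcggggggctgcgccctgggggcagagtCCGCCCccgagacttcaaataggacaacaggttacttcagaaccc
Mfsd2a: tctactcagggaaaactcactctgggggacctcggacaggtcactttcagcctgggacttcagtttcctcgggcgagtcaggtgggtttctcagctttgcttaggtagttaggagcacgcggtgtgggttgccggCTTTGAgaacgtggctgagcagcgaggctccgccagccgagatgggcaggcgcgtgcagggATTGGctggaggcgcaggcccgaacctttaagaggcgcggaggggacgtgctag
Flt1: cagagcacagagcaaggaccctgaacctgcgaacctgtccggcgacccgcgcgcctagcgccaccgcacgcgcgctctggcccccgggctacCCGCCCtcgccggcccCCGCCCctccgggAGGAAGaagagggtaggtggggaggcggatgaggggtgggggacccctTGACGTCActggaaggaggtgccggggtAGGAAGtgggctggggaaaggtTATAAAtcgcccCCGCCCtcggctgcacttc

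The motifs were the ETS core AGGAAG, the TCF/LEF core CTTTGA, the GC box GGGCGG, the CCAAT box CCAAT, the TATA box TATAAA and the CRE half-site TGACG. In all 32851 promoter windows of the same length, they were present in 29.5%, 13.8%, 32.7%, 33.8%, 12.4% and 17.8%, in that order. Flt1 held 2 ETS cores, 3 GC boxes, 1 TATA box and 2 CRE half-sites, the latter being the overlapping arms of 1 palindrome. Cldn5 held 1 GC box and 2 CCAAT boxes, and Mfsd2a 1 TCF/LEF core and 1 CCAAT box. The 3 windows were rich in G and C, with 59.6% in Cldn5, 61.6% in Mfsd2a and 70.4% in Flt1 beside a median of 52.4% over all windows. They held 12, 17 and 23 CpG dinucleotides, beside a median of 6. Windows were searched for 7 of the 10 genes: Cdh5 and Pecam1 had no matching RefSeq window, and Pdgfrb was left out. Among these 7 an ETS core was found in 3, a TCF/LEF core in 2, a GC box in 3, a CCAAT box in 3, a TATA box in 2 and a CRE half-site in 1. Windows searched but not shown were not all rich in G and C. Slc2a1 had 66.4% and 13 CpG, Vtn 50.4% and 9, Abcb1a 40.4% and 0, and Slco1a4 39.2% and 0. The Abcb1a window, which holds an ETS and a TCF/LEF core, lies 92986 bases from the start of that gene in the annotation used here. A match of letters is a description and not a binding site.

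Per unit of length, levels of the 10 genes ranged widely. The scale here is TPM, counts divided by exonic length and scaled to the library, given as mean ± SD over 6 libraries. Vtn was highest at 131 ± 15.02 and Cdh5 lowest at 10.01 ± 1.67. Between them came Slc2a1 at 84.8 ± 2.80, Cldn5 at 77.2 ± 11.9, Slco1a4 at 35.7 ± 4.45, Mfsd2a at 34.3 ± 2.75, Pdgfrb at 20.0 ± 2.57, Abcb1a at 15.96 ± 3.71, Flt1 at 15.9 ± 3.25 and Pecam1 at 11.8 ± 1.34. Ranges over the libraries were apart between Vtn and Slc2a1, between Cldn5 and Slco1a4, and between Mfsd2a and Pdgfrb. All other neighbours in this order overlapped and did not differ beyond their spread. Among the genes tested, these levels lay between the 69.1st percentile (Cdh5) and the 96.2nd percentile (Vtn).

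**Figure D1:**
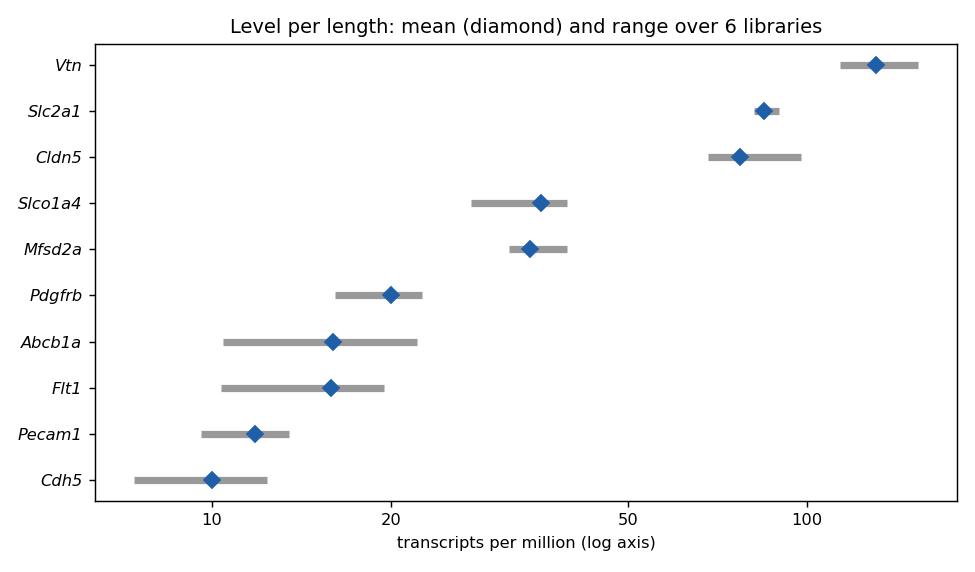
TPM (counts per length, scaled to the library) on a log axis for the 10 genes, ordered by their mean. Diamonds are means over 6 libraries and grey bars run from the lowest to the highest library. The bar of Vtn lies above all others, from 114 to 154, and the 5 lowest genes form an overlapping ladder from 7.40 to 22.6.

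The comparison of p300-ifKO with control mice called 0 of the 10 genes (DESeq2 Wald test, threshold of 0.05 on adjusted p), where the share called over all 32773 genes tested was 0.0061%. The adjusted p was 0.991 for each of the 10 in DESeq2, between 0.745 and 0.875 in edgeR and between 0.748 and 0.887 in limma-voom. At an unadjusted p under 0.05 DESeq2, edgeR and limma-voom also counted 0 of 10, and the share over all genes in DESeq2 was 1.32%. Log2 fold changes were positive for 4 genes and negative for 6, from −0.35 (Abcb1a) to 0.35 (Cldn5), with a median of −0.056. The median was −0.10 for the 8 endothelial genes and 0.049 for the 2 pericyte genes, and −0.046 over all genes tested. The 95% interval of the fold change stayed within 2-fold in either direction for 10 of 10 genes and within 1.5-fold for 8, all except Cldn5 and Abcb1a.

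**Figure D2:**
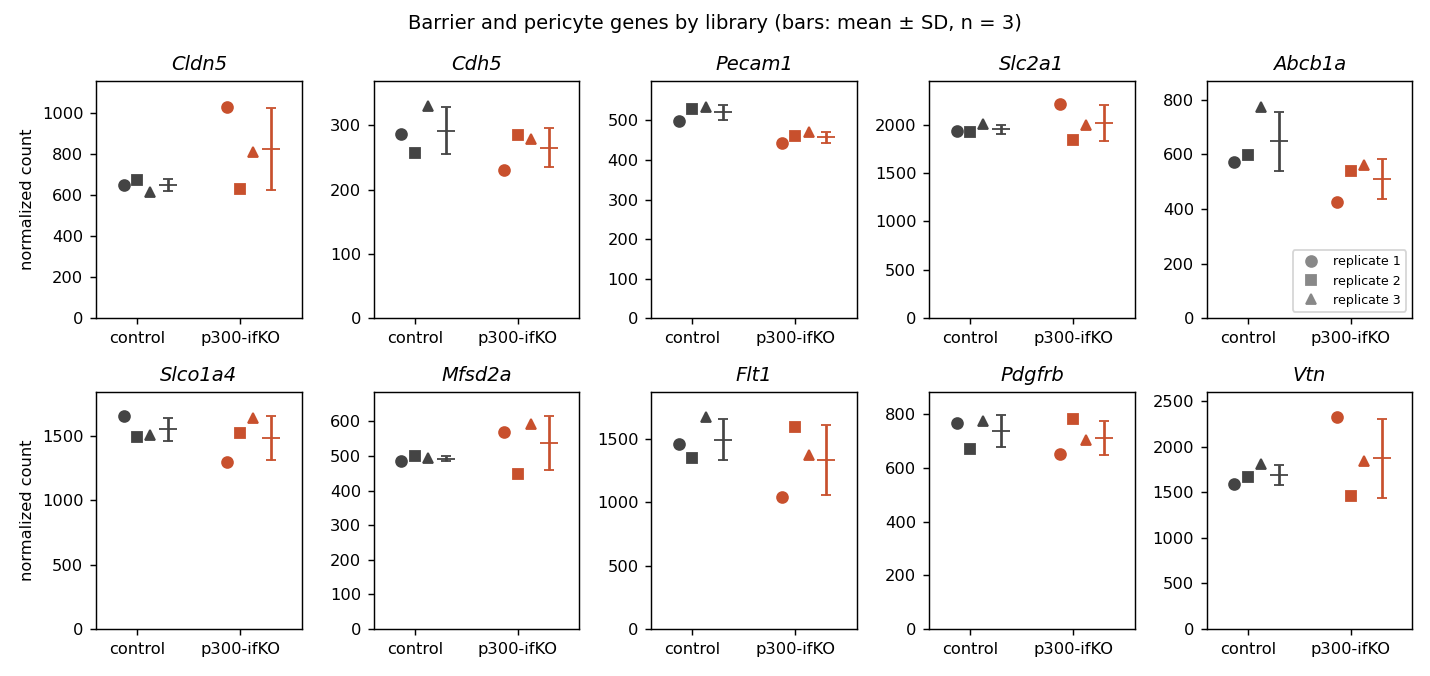
Normalized counts of the 10 genes in each library, on axes that start at 0. Circles, squares and triangles are replicates 1, 2 and 3, grey for control and orange for p300-ifKO, and the bars beside them show mean ± SD (n = 3). Groups are apart in Pecam1 and Abcb1a, and the circle of p300-ifKO replicate 1 is at the edge of the points in 9 of the 10 panels.

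Cldn5 encodes claudin-5, the main claudin of the tight junctions of brain endothelium. It is a short gene with 1416 exonic bases (chromosome 16, 18776847 to 18778262, + strand, GRCm38). Cldn5 had 650, 672 and 614 normalized counts in control mice 1, 2 and 3, and 1028, 628 and 810 in p300-ifKO mice 1, 2 and 3. Replicates 1 and 3 of p300-ifKO were above all controls, replicate 2 was among them, and the groups overlapped. Means were 646 ± 29.3 (SD, n = 3) and 822 ± 200.0 (SD, n = 3), a log2 fold change of 0.35 (SE 0.20, 95% interval −0.04 to 0.74, unadjusted p 0.0803 in DESeq2). Without p300-ifKO replicate 2 the log2 fold change reached 0.51 and the DESeq2 adjusted p 0.0366, which made Cldn5 the 1 member called of 10, in a fit that called 7.9% of 11726 genes. Without p300-ifKO replicate 1, it was 0.15. With smooth length and GC offsets for each library it was 0.12, and with 1 surrogate variable 0.082.

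Cdh5 encodes VE-cadherin, the adhesion protein of endothelial adherens junctions (chromosome 8, 104101625 to 104144511, + strand). Its values were 287, 257 and 331 normalized counts in control mice and 231, 285 and 280 in p300-ifKO mice. Both groups overlapped, with p300-ifKO replicate 1 lowest and control replicate 3 highest. The log2 fold change of Cdh5 was −0.14 (SE 0.18, 95% interval −0.49 to 0.22, DESeq2).

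Pecam1 encodes the adhesion molecule PECAM-1 (CD31), which joins endothelial cells to each other (chromosome 11, 106654217 to 106750628, − strand). It had 498, 528 and 535 normalized counts in control mice and 442, 460 and 471 in p300-ifKO mice. All 3 p300-ifKO libraries lay below all 3 controls, and the spread within each group was narrow, with means of 520 ± 19.6 and 457 ± 14.2 (SD, n = 3 each). The log2 fold change was −0.19 (SE 0.13, 95% interval −0.44 to 0.07, unadjusted p 0.152 in DESeq2). Pecam1 and Abcb1a were the 2 of 10 genes with each p300-ifKO library below each control library, an arrangement found in 3.42% of all genes tested and in 3.24% of those with a mean of at least 20 normalized counts. The opposite arrangement was found in 0 of 10, and in 3.21% of all genes tested. Pecam1 also had the steadiest fold change, between −0.22 and −0.11 over the alternatives.

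Among the transporters, Slc2a1 encodes GLUT1, the glucose carrier of the barrier (chromosome 4, 119108711 to 119137983, + strand). Slc2a1 had 1930, 1923 and 2006 normalized counts in control mice and 2208, 1838 and 1994 in p300-ifKO mice. The p300-ifKO libraries held both the highest and the lowest of the 6 values, on either side of closely grouped controls. Its log2 fold change was 0.04 (SE 0.12, 95% interval −0.20 to 0.28, DESeq2), the smallest in size and with the narrowest interval of the 10. It was −0.03 without p300-ifKO replicate 1. An antisense gene, Gm12868, overlaps 105 of its exonic bases.

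Abcb1a encodes P-glycoprotein, the efflux pump that returns many drugs to the blood (chromosome 5, 8660077 to 8748575, + strand). It had 573, 598 and 771 normalized counts in control mice and 425, 537 and 562 in p300-ifKO mice. The highest p300-ifKO library was just below the lowest control, and control replicate 3 stood well above the rest. Means were 647 ± 108 and 508 ± 72.9 (SD, n = 3 each), a log2 fold change of −0.35 (SE 0.19, 95% interval −0.72 to 0.02, unadjusted p 0.0636 in DESeq2), the lowest unadjusted p of the 10. Without control replicate 3 it was −0.20, and with length and GC offsets −0.26, where the groups overlapped. Abcb1a shares 22.5% of its exonic stretches of 50 bases, the read length, with another gene, mainly its neighbour Abcb1b, and 553 of its exonic bases overlap an exon of the antisense gene Gm42686, so its count is uncertain. Abcb1b, a related pump gene, had 135 ± 5.80 normalized counts in controls and 130 ± 18.9 in p300-ifKO mice (SD, n = 3 each), a log2 fold change of −0.05 (SE 0.21).

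Slco1a4 encodes an organic anion transporter of the barrier (chromosome 6, 141805440 to 141856199, − strand). It had 1656, 1494 and 1504 normalized counts in control mice and 1297, 1520 and 1638 in p300-ifKO mice. Both groups overlapped and p300-ifKO replicate 1 was lowest. Slco1a4 had a log2 fold change of −0.06 (SE 0.14, 95% interval −0.34 to 0.21, DESeq2), and 0.02 without p300-ifKO replicate 1. Its close relatives were hardly read: Slco1a1 had 0 counts in all 6 libraries, and Slco1a5 and Slco1a6 at most 2.04 and 1.02 normalized counts in any library.

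Mfsd2a encodes the carrier of lysophosphatidylcholine that brings docosahexaenoic acid into the brain and holds down vesicle transport across the endothelium (chromosome 4, 122946850 to 122961188, − strand). Its values were 484, 499 and 493 normalized counts in control mice and 570, 449 and 593 in p300-ifKO mice. The controls were within a few percent of each other, whereas p300-ifKO libraries lay on both sides of them. Mfsd2a had a log2 fold change of 0.13 (SE 0.16, 95% interval −0.19 to 0.44, DESeq2).

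Flt1 encodes VEGF receptor 1, which binds VEGF-A and limits its action on the endothelium (chromosome 5, 147561604 to 147726011, − strand). With 13504 exonic bases it is the longest of the 10. Flt1 had 1458, 1352 and 1672 normalized counts in control mice and 1040, 1595 and 1371 in p300-ifKO mice. Replicate 1 of p300-ifKO was far below the other libraries, and the remaining p300-ifKO libraries lay inside the range of the controls. The log2 fold change was −0.16 (SE 0.19, 95% interval −0.53 to 0.21, DESeq2), and −0.01 without p300-ifKO replicate 1. The other VEGF receptor of endothelium, Kdr, had 374 ± 29.1 normalized counts in controls and 299 ± 55.8 in p300-ifKO mice (SD, n = 3 each), which gave a log2 fold change of −0.32 (SE 0.19) and a DESeq2 adjusted p of 0.991.

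Of the pericyte genes, Pdgfrb encodes the receptor through which endothelial PDGF-B recruits and keeps pericytes. Its values were 769, 671 and 776 normalized counts in control mice and 654, 781 and 703 in p300-ifKO mice. Each group covered nearly the same range. For Pdgfrb the log2 fold change was −0.05 (SE 0.14, 95% interval −0.33 to 0.23, DESeq2), and 0.01 without p300-ifKO replicate 1. Pdgfra, the related receptor gene of oligodendrocyte precursors and fibroblasts, had a log2 fold change of −0.29 (SE 0.17).

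Vtn encodes vitronectin, a matrix protein that brain pericytes secrete and that integrins on endothelium bind (chromosome 11, 78499091 to 78502324, + strand). Vtn had 1593, 1665 and 1812 normalized counts in control mice and 2322, 1458 and 1840 in p300-ifKO mice. Replicate 1 of p300-ifKO was highest and replicate 2 lowest of all 6. The log2 fold change was 0.15 (SE 0.19, 95% interval −0.22 to 0.52, DESeq2), and −0.04 without p300-ifKO replicate 1. The level of Vtn followed that of Slc2a1 more closely than that of Pdgfrb, with Pearson correlations of 0.99 and −0.69 over 6 libraries, a description of libraries that share depth and dissection.

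Pdgfrb lies near the gene whose promoter drives the transgene. On chromosome 18 it spans 61045150 to 61085061 (+ strand), 57.0 kb beyond the end of Camk2a, with Slc6a7 and Cdx1 between them. Arsi, on the other side of Camk2a, is 1 of the 2 genes called over the whole table, with 30.6 ± 7.46 normalized counts in controls and 181 ± 20.1 in p300-ifKO mice (SD, n = 3 each) and an adjusted p of 2.99e-17 in DESeq2. The paper describes Arsi as part of the artificial chromosome (BAC) from which the driver strain was made. Camk2a itself had a log2 fold change of −0.01 (SE 0.14). Slc6a7, a proline transporter gene, was at 0.30 on the log2 scale (SE 0.12) with a DESeq2 unadjusted p of 0.00981 and adjusted p of 0.991, with each p300-ifKO library above each control. Cdx1 had a single read, in p300-ifKO replicate 1. For Pdgfrb the upper bound of the 95% interval corresponded to 1.17-fold.

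**Figure D3:**
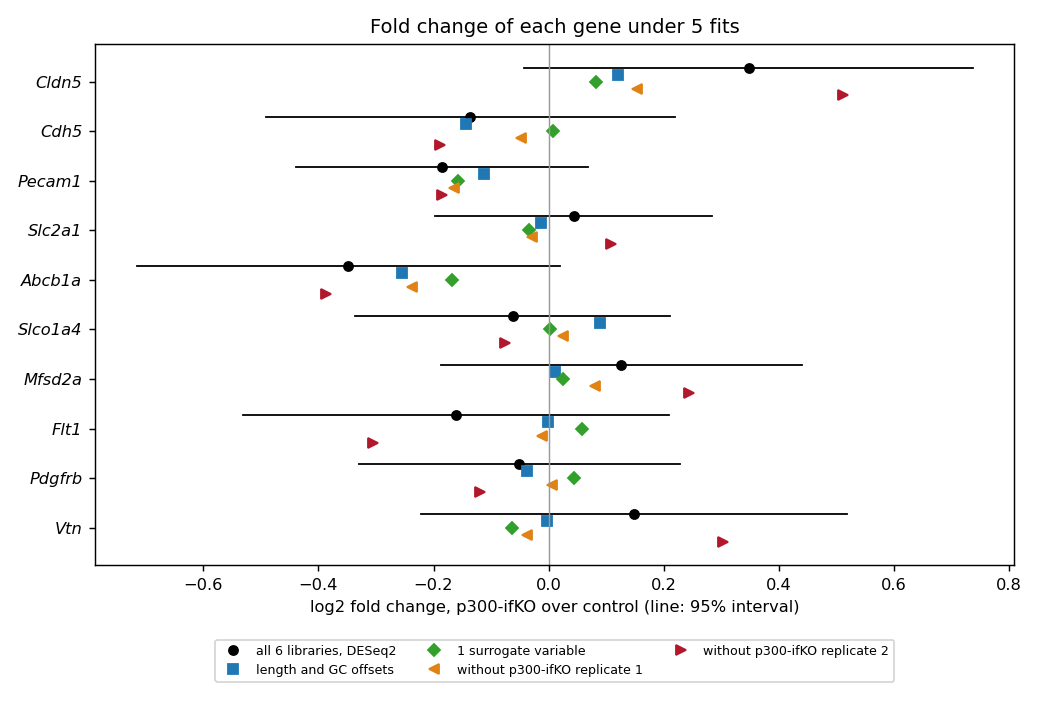
Log2 fold change of each gene, p300-ifKO over control, in 5 fits. Black circles and lines are the DESeq2 estimate over 6 libraries and its 95% interval, and other symbols are the estimate with length and GC offsets, with 1 surrogate variable, or without p300-ifKO replicate 1 or 2. All 10 lines cross 0, and the estimate farthest from 0 is that of Cldn5 without p300-ifKO replicate 2, at 0.51.

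The direction of the 10 fold changes followed exonic length. GC content also differed between these genes, from 40.3% (Slco1a4) to 60.5% (Cldn5), and was not separated from length here. All 3 genes under 3 kb (Cldn5, Vtn and Mfsd2a) had positive log2 fold changes, against 1 of 4 between 3 and 6 kb (Slc2a1) and 0 of 3 at 6 kb or more. Across the 10 genes, the log2 fold change and log2 exonic length had a Pearson correlation of −0.81 and a Spearman correlation of −0.83. Genes measured in the same 6 libraries are not independent replicates, and no p is given. The same order was seen in 165 other neurovascular genes (Pearson correlation −0.50) and in 15450 genes of the whole table (−0.42), where the median log2 fold change was 0.17 under 3 kb, 0.0073 from 3 to 6 kb and −0.13 at 6 kb or more. With length and GC offsets the correlation across the 10 genes was −0.34, with 1 surrogate variable −0.15 and without p300-ifKO replicate 1 −0.48.

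**Figure D4:**
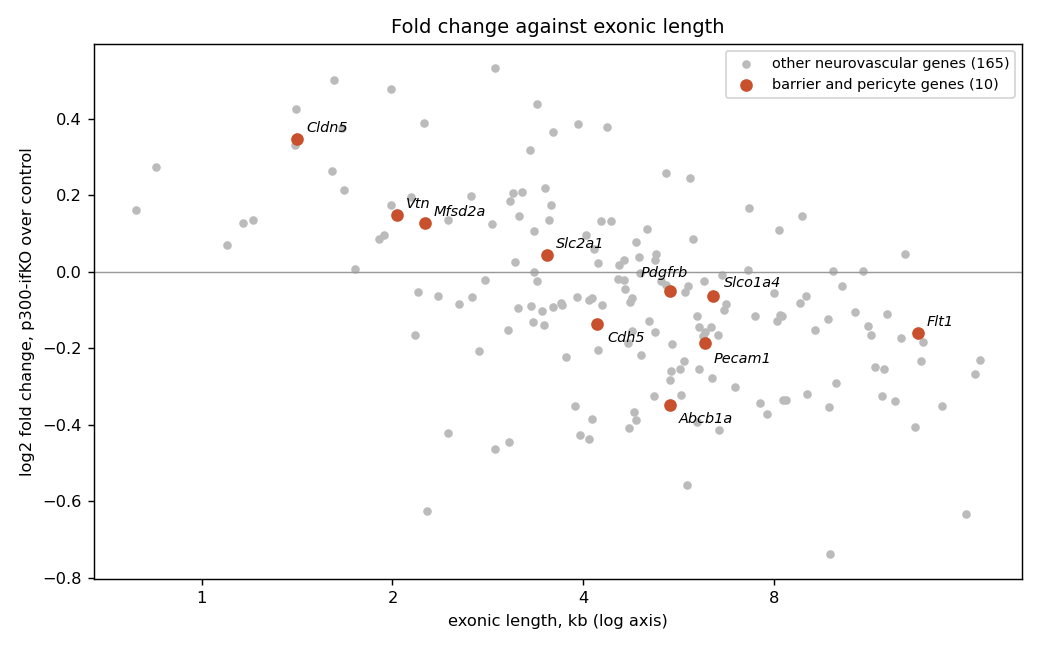
Log2 fold change, p300-ifKO over control, against exonic length on a log axis for the 10 barrier and pericyte genes (orange, named) and 165 other neurovascular genes with a mean of at least 20 normalized counts (grey). The orange points run from Cldn5 at 1416 bases and 0.35 down to negative values from 4203 bases on.

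The variation of the 10 genes between libraries divided at the same place, a division noticed after the values were seen. The 4 shortest genes (Cldn5, Vtn, Mfsd2a and Slc2a1, up to 3506 bases) correlated positively with each other in 6 of 6 pairs over the 6 libraries, with Pearson correlations between 0.74 and 0.99. The 6 longest (from 4203 bases) did so in 15 of 15 pairs, between 0.26 and 0.93. All 24 pairs that joined a gene of one kind to one of the other were negative, between −0.93 (Cldn5 with Flt1) and −0.22. Endothelial and pericyte genes occurred on both sides, Vtn on the first and Pdgfrb on the second. With length and GC offsets, pairs among the 6 longest were positive in 8 and negative in 7, and pairs between both kinds positive in 13 and negative in 11, whereas the 4 shortest stayed positive in 6 of 6, between 0.16 and 0.98.

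The p300-ifKO replicate 1 library was the highest for 3 of the 10 genes (Cldn5, Slc2a1 and Vtn) and the lowest for 6 (Cdh5, Pecam1, Abcb1a, Slco1a4, Flt1 and Pdgfrb), 9 of 10 in all beside the 77.3% given above. With length and GC offsets it was at an extreme for 5 of 10, beside 69.2% of genes. In this library, deviations from the mean of the 6 correlated with log2 length at −0.35 over 17054 genes, against 0.11, 0.10 and 0.26 in control replicates 1, 2 and 3, and 0.28 and −0.13 in p300-ifKO replicates 2 and 3. With GC content the correlation was 0.295 in this library. It was −0.073, −0.122 and −0.199 in control replicates 1, 2 and 3, and −0.176 and 0.036 in p300-ifKO replicates 2 and 3. The part of these trends in the differences of single genes was not tested.

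Genes whose profiles over the 6 libraries most resembled the mean profiles of the endothelial and pericyte genes were not vessel markers from the lists used here. Among 12242 genes with a mean of at least 100 normalized counts, the mean profile of the 8 endothelial genes was most like Zfp395 (Pearson correlation 0.98), followed by Epha8 (0.96), Cry1 (0.94), Brca2 (0.94) and Dab2 (0.94). The mean profile of Pdgfrb and Vtn was most like Mvp (0.99), Hapln2 (0.99), Mboat1 (0.99), Igfbp2 (0.98) and Pla2g16 (0.98). Pdgfrb and Vtn themselves correlated at −0.69, and the 8 endothelial genes fell on both sides of the division by length. Each mean therefore joins genes that varied in opposite directions and stands for no single gene or cell type. These rankings rest on 6 points that share depth, dissection and the length and GC trends.

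Beyond the 10 genes, 172 other genes of the neurovascular unit were read in 14 lists. Which cells of the whole tissue the RNA of these genes came from was not tested. DESeq2 called 0 of 172 in either direction, with 8 at an unadjusted p under 0.05, where the share over all genes tested was 1.32%. These sets are unlike: 15450 of the 32773 genes tested had a mean of at least 20 normalized counts, as did 165 of the 172. A share over genes of like counts was not taken. In edgeR and limma-voom 0 were called, with 6 at that p in each, and no share over all genes was taken. Log2 fold changes were positive in 61 and negative in 111, with a median of −0.081. Over all genes tested 45.3% were positive with a median of −0.046, and over the 15450 genes with a mean of at least 20 normalized counts 49.3%, with a median of −0.0046. Each p300-ifKO library was above each control in 5 of 172 and below each control in 9. Over all genes tested, these arrangements were found in 3.21% and 3.42%. Without p300-ifKO replicate 2, 5 of 172 were called, in a fit that called 7.9% of all genes. The median changed sign under at least 1 of 15 alternatives in 9 of the 14 lists. Every named gene of these lists below had an adjusted p of at least 0.745 in edgeR where it was tested, and between 0.991 and 0.998 in DESeq2.

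Other endothelial identity genes were evenly split, 11 positive and 13 negative with a median log2 fold change of −0.014. Their summed level was between 14520 and 15050 normalized counts in control mice and between 13740 and 14240 in p300-ifKO mice, without overlap, whereas the sums of the 8 endothelial genes above overlapped (7324 to 7926 and 7242 to 7720). A sum weighs abundant genes most. The most abundant, S1pr1, had 3636 ± 171 normalized counts in control and 3274 ± 355 in p300-ifKO mice (SD, n = 3 each), which overlapped. Its log2 fold change was −0.15 (SE 0.13). At a mean of 171 TPM, S1pr1 was far above the endothelial markers Tek (10.4) and Tie1 (9.68), and the share of its RNA from endothelium was not tested. How often sums of such lists are apart was not tested. Sox18, a transcription factor gene of endothelium, had 128, 119 and 122 normalized counts in controls and 219, 131 and 175 in p300-ifKO mice, with no overlap and a log2 fold change of 0.50 (SE 0.24). Adgrl4, an adhesion receptor gene, had 515, 620 and 586 in controls and 426, 482 and 468 in p300-ifKO mice, also with no overlap, and a log2 fold change of −0.32 (SE 0.15). Vwf, the von Willebrand factor gene of larger vessels, had 400, 459 and 843 in controls and 308, 370 and 418 in p300-ifKO mice. The value of control replicate 3 stood apart, and the log2 fold change of Vwf was −0.63 (SE 0.29), or −0.23 without that library. Exonic length was 1620 bases for Sox18 and 16064 for Vwf.

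Genes of junctions and transport gave small differences in both directions. Of 13 other junction genes, 5 were positive and 8 negative (median −0.12). Jam2, an adhesion molecule of tight junctions, had a log2 fold change of −0.39 (SE 0.17) and Ocln, the gene for occludin, of −0.20 (SE 0.16), both with each p300-ifKO library below each control. Marveld2, the gene for tricellulin, was highest at 0.44 (SE 0.36). Of 20 other barrier transporters and receptors, 8 were positive and 12 negative (median −0.064). Tfrc, the transferrin receptor gene, had a log2 fold change of −0.17 (SE 0.12), Slc7a5, the large neutral amino acid carrier gene, of −0.09 (SE 0.10), and the efflux pump gene Abcc4 of −0.28 (SE 0.17), all 3 without overlap of the groups. The extremes of this list were the amino acid transporter gene Slc38a5 (0.39, SE 0.33) and the transporter gene Slc16a4 (−0.35, SE 0.23).

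Genes of vesicle transport, which the barrier normally keeps low, were 2 positive and 4 negative. Plvap, the gene for the diaphragm protein of leaky vessels, had 260, 228 and 226 normalized counts in controls and 442, 249 and 305 in p300-ifKO mice, which overlapped. Its log2 fold change was 0.48 (SE 0.24), and it passed the DESeq2 threshold without p300-ifKO replicate 2 (0.65, adjusted p 0.0451). Cavin2, a caveolar coat gene, had a log2 fold change of −0.44 (SE 0.23), with control replicate 3 highest. The endothelial activation list was 7 positive and 2 negative, with a median of 0.38, which was −0.0052 without p300-ifKO replicate 3. Its members with no overlap were Lrg1 (0.43, SE 0.40, between 21.01 and 35.4 normalized counts) and Selp, the gene for P-selectin, which had at most 2.04 normalized counts in any library. Angpt2, an antagonist of the angiopoietin receptor, was lowest of those with a mean of at least 20, at −0.08 (SE 0.37).

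Signalling genes of vessel and barrier had medians near that of the whole table. For canonical Wnt genes of the barrier, 8 were positive and 11 negative (median −0.081, or 0.019 without control replicate 3 and 0.011 with 1 surrogate variable), from Fzd6 (−0.37, SE 0.22, no overlap), a Frizzled receptor gene, to Sox7 (0.32, SE 0.31). For VEGF and angiopoietin ligands and receptors, 4 were positive and 8 negative (median −0.083). Pgf, the placental growth factor gene and a ligand of Flt1, had 115, 109 and 105 normalized counts in controls and 201, 123 and 154 in p300-ifKO mice, with no overlap and a log2 fold change of 0.53 (SE 0.24) with a DESeq2 unadjusted p of 0.0284. The coreceptor genes Nrp1 and Nrp2 had log2 fold changes of −0.35 (SE 0.26) and −0.33 (SE 0.17). Groups were apart in Nrp2 and overlapped in Nrp1, and without p300-ifKO replicate 2 both passed the DESeq2 threshold, at −0.68 (adjusted p 0.0195) and −0.47 (adjusted p 0.0306). Genes of PDGF and TGF-beta signals were 5 positive and 7 negative (median −0.039), and the highest was Acvrl1 (0.13, SE 0.16), a TGF-beta family receptor gene of endothelium.

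Mural and matrix lists each held more negative than positive values in the main comparison. Other pericyte genes were 5 positive and 13 negative, with a median log2 fold change of −0.054, from Slc6a20a (−0.44, SE 0.28) to Art3 (0.39, SE 0.25, no overlap). Smooth muscle genes were 3 positive and 6 negative (median −0.14), from Lmod1 (−0.43, SE 0.44) to Tagln (0.17, SE 0.44), and the median was 0.12 without control replicate 3. Fibroblast genes were 0 positive and 9 negative, with a median of −0.46, which was −0.020 without control replicate 3. In that library the collagen gene Col3a1 had 109 normalized counts, against 33.3 to 39.5 in the other libraries, and its log2 fold change went from −0.74 (SE 0.48) to 0.02 without it. Vascular basement membrane genes were 1 positive and 11 negative (median −0.16, or −0.058 without p300-ifKO replicate 1, −0.40 without replicate 2 and 0.042 with 1 surrogate variable), from Hspg2 (−0.35, SE 0.29), the perlecan gene, to Lamb1 (0.0011, SE 0.14).

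At the outer wall, astrocyte endfoot genes were 1 positive and 8 negative (median −0.036), and the lowest was Dtna (−0.23, SE 0.16), which encodes a dystrobrevin of the endfoot. Integrin genes and other partners of vitronectin were 3 positive and 4 negative (median −0.073). Itgb3 was at 0.25 (SE 0.26) and Itga5 at −0.22 (SE 0.28). Plaur, the urokinase receptor gene, had 6.96, 6.30 and 10.2 normalized counts in controls and 17.2, 15.02 and 15.4 in p300-ifKO mice, with no overlap, and a log2 fold change of 1.02 (SE 0.58) at this low level, with a DESeq2 unadjusted p of 0.0766.

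**Figure D5:**
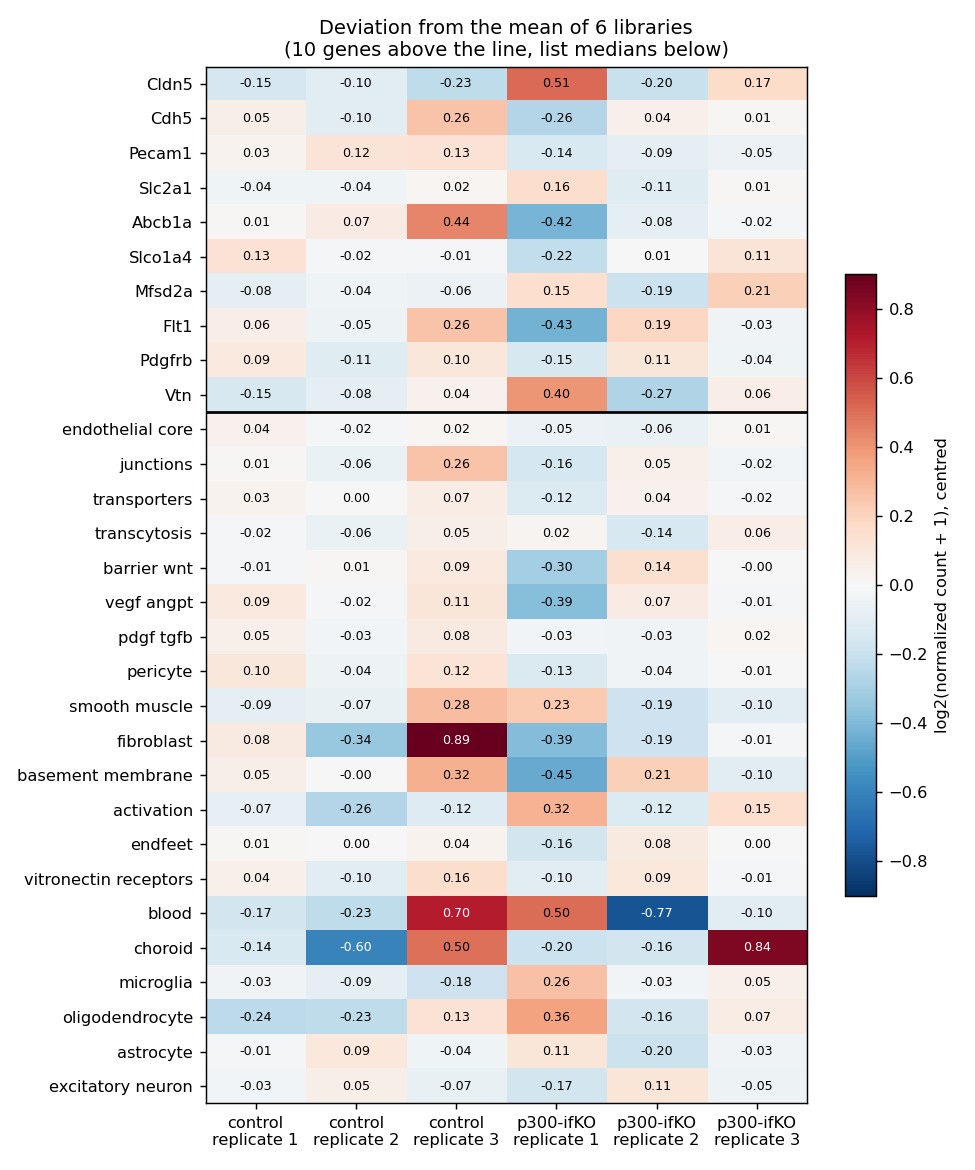
Deviation of each library from the mean of the 6, in log2(normalized count + 1), for the 10 genes (above the line) and as the median of each gene list (below it, genes with a mean of at least 20 normalized counts). Red is higher and blue lower than the mean. The p300-ifKO replicate 1 column is the most coloured among the 10 genes, from −0.43 in Flt1 to 0.51 in Cldn5, and the fibroblast list reaches 0.89 in control replicate 3.

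Other cell types moved between libraries too. The summed level of 5 blood cell genes ranged from 2120 to 4063 normalized counts in control and from 1431 to 3579 in p300-ifKO mice, with 0 of 5 genes positive. For 8 choroid plexus genes the sums were between 838 and 3899 in control and between 1488 and 5633 in p300-ifKO mice, with 7 of 8 genes positive, and for 8 microglia genes between 8210 and 9006 and between 9133 and 10440, with 6 of 8 positive. For 7 astrocyte genes the sums were between 124300 and 128000 and between 113200 and 120200, with 3 of 7 positive. The groups were apart in the microglia and astrocyte sums. Median log2 fold changes of these lists were 0.18 for microglia and −0.0097 for astrocytes, and 0.12 and −0.013 with length and GC offsets. The largest part of the astrocyte sum was Slc1a2 (13133 exonic bases), with means of 69110 normalized counts in control and 61760 in p300-ifKO mice. How often such sums are apart was not tested. Those of 7 oligodendrocyte genes (6 positive) and 7 excitatory neuron genes (3 positive) overlapped. DESeq2 called 0 genes of these 6 lists, and each listed gene had counts in at least 1 library. The 10 barrier and pericyte genes together summed to between 9660 and 10510 normalized counts in control and between 9552 and 10260 in p300-ifKO mice, with overlap. The part of other cell types in the values of the 10 genes was not tested.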

How the data were processed

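RNA-seq was made from the hippocampus of individual mice, and groups were taken from the sample titles. The authors trimmed single-end 50 bp reads (Trim Galore 0.6.4), aligned them to GRCm38 (STAR 2.6.1), kept reads with a mapping quality above 10 and assigned them to Ensembl exons with Rsubread. The deposited values are raw counts per gene, beside an exonic length, with no strand setting stated, which leaves genes that share bases on both strands uncertain. Reads that fit several copies of a gene drop out at the quality limit. Identifiers were matched to GENCODE M21 (55230 of 55471, 99.57%).

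Groups were compared with DESeq2 (1.42.0, R 4.3.3), the tool the study names: two-sided Wald test, median-of-ratios size factors, no covariate, default filtering and Benjamini-Hochberg adjustment over 32773 genes at 0.05. Intervals are 95% and SD is over 3 mice. Alternatives were edgeR quasi-likelihood (4.0.16, with and without filterByExpr), limma-voom (3.58.1), TMM factors, a replicate block, a threshold of 0.1, a minimum of 10 counts in 3 libraries, no independent filtering, 1 surrogate variable (sva 3.50.0), length and GC offsets (mgcv 1.9.3), scaling to the library total, and leaving out each library. The main DESeq2 fit, edgeR with filterByExpr and the fit with 1 surrogate variable were tested on simulated data. p-values measure the spread between these mice.

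The 10 genes and the gene lists were chosen with earlier results of these data known, the lists from textbook knowledge. Named from each list were genes past the threshold, the highest and lowest log2 fold change among genes with a mean of at least 20 normalized counts, and genes whose groups did not overlap. A gene that this rule names is not reported here. Also named were close paralogues, Ep300, Esr1, Arsi, neighbours between Camk2a and Pdgfrb, and the 5 genes most like each mean profile. The markers Tek, Tie1, Rgs5 and Kcnj8 were chosen after their values were seen. S1pr1, Dcn and Slc1a2 were named as the most abundant genes of their lists. Promoter sequences came from RefSeq.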

Additional observations from a re-analysis of the deposited data

How the results depend on the processing

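Over 16 alternatives, 146 of 160 fold changes of the 10 genes kept their sign and their side of the threshold. Some alternatives, such as the threshold of 0.1 or no independent filtering, cannot alter a fold change. The 13 changes of sign all came with 1 surrogate variable, with length and GC offsets or without p300-ifKO replicate 1. Leaving out 1 library at a time moved the whole-table count from 2 to as many as 926 genes, the count among the 10 from 0 to 1 (Cldn5), and that among the 172 other genes from 0 to 5, each highest without p300-ifKO replicate 2. In those fits log2 fold changes ran from 0.15 to 0.51 for Cldn5, −0.029 to 0.11 for Slc2a1, −0.14 to 0.024 for Slco1a4, −0.12 to 0.0058 for Pdgfrb and −0.037 to 0.30 for Vtn. Medians of lists ran from −0.25 to 0.026 for junctions, −0.15 to −0.0091 for vesicle transport, −0.059 to 0.0080 for PDGF and TGF-beta signals, −0.23 to 0.12 for smooth muscle and −0.0052 to 0.53 for activation. Single genes ran from −0.25 to 0.37 for Tagln, −1.02 to 0.018 for Col3a1, −0.070 to 0.083 for Lamb1, −0.18 to 0.097 for Angpt2, and −0.16 to 0.044 for Abcb1b.

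With 1 surrogate variable, log2 fold changes were 0.0075 for Cdh5, −0.034 for Slc2a1, 0.0027 for Slco1a4, 0.058 for Flt1, 0.044 for Pdgfrb, −0.064 for Vtn, −0.16 for Tagln, 0.043 for Lmod1, 0.011 for Hspg2, 0.081 for Abcb1b and 0.00040 for Slc2a3, and list medians −0.054 for endothelial identity, 0.030 for junctions and 0.094 for partners of vitronectin. With length and GC offsets they were −0.013 for Slc2a1, 0.090 for Slco1a4, −0.0025 for Vtn, 0.082 for Abcb1b and 0.077 for Slc2a3, with list medians of 0.027 for transporters, −0.14 for other pericyte genes and 0.078 for partners of vitronectin. Lamb1 was −0.00061 with the minimum of 10 counts. The cause of these differences was not tested.

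Deviations of same-numbered mice correlated at 0.27, −0.28 and 0.13 over 17071 genes. These values cannot show whether same-numbered mice were matched, since deviations of single libraries also followed length and GC content. A replicate block raised the whole-table count from 2 to 4, gave −0.0023 for Lamb1 and called 0 of the 10 genes.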
